A study of Mus musculus with 3 samples.

Results

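Many genes can be transcribed from more than 1 start. Besides its outermost (most 5′) start, a gene may carry internal alternative starts, from which shorter transcripts are made that lack the first exons. Trimethylated lysine 36 of histone H3 (H3K36me3) is written by Setd2 as the enzyme travels with elongating RNA polymerase II, so the mark builds up over transcribed gene bodies and is low at active promoters. Active promoters of the CpG-rich kind carry H3K4me3 in its place, and an internal promoter therefore sits inside the region where the transcription of the whole gene would deposit H3K36me3.

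The regions described here were H3K36me3 peaks at internal alternative starts of protein-coding genes. A peak was a member if it was under 10000 bp long, if its midpoint lay within 1 kb of an annotated transcript start at least 5 kb downstream of the outermost start of the gene, and if it was not within 1 kb of the outermost start of any coding gene. The starts came from GENCODE M21, and the rule used the position and length of peaks but not their values. Of 120910 peaks, 10898 were members, which was 9.06% of the 120304 peaks under 10000 bp. They lay at 8223 distinct starts in 4185 genes.

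The mark was measured by ChIP-seq in regulatory T (Treg) cells, the Foxp3-expressing CD4+ T cells that restrain immune responses. CD3+CD4+ cells that carried the YFP reporter of Foxp3 were sorted from steady state spleen and large intestine of C57BL/6 mice with the genotype Foxp3-YFP, in which a Cre-YFP cassette is driven by Foxp3. Cells were pooled from 7 female and 7 male mice. There was 1 H3K36me3 library of each tissue and 1 input, which was not analysed here, so no difference below has a replicate check.

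Depth inferred from the values was 29600000 reads for the spleen library and 38100000 for that of large intestine. Values are given as the mean RPKM of a peak (reads per kilobase, scaled to the mapped reads of the library). Peaks lay over 6 of 6 Treg cell marker genes, with summed signals of 1777 RPKM in spleen and 1475 in large intestine. Most of this sum came from the 115 peaks of Ikzf2 (1205 and 851 RPKM). Foxp3 (133 and 156 RPKM), Ctla4 (66.1 and 103) and Cd4 (73.9 and 83.2) were higher in large intestine. Il2ra (247 and 242) and Cd3e (51.8 and 40.1) were higher in spleen. The B cell list had peaks at 3 of 5 genes (60.2 and 53.4 RPKM) and none at Ms4a1. The myeloid list had peaks at 1 of 4 genes (14.7 and 16.3 RPKM). The list of intestinal epithelium had peaks at 2 of 5 genes, with 29.9 RPKM in spleen and 59.8 in large intestine, and none at Cdh1, Krt8 or Muc2. The part of such cells in the differences below was not tested.

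The annotated starts behind the peaks were of different kinds. The largest class, 5322 members (48.8%), was nearest to the start of a retained_intron transcript, an annotated RNA that keeps an intron and is not taken to make a protein. Another 2621 (24.1%) belonged to processed_transcript models, 2271 (20.8%) to protein_coding transcripts and 679 (6.23%) to transcripts subject to nonsense-mediated decay. The annotated start lay in an intron of the other transcripts of the gene for 5554 members (51.0%), inside an exon for 4845 (44.5%), and at the exact first base of an exon for 499 (4.58%). Exons of any other transcript counted here, including first exons of transcripts that begin at or near the same start. A start model inside an exon or intron can be an incomplete RNA rather than a promoter, and ChIP-seq of this mark does not tell these apart.

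The base composition of the starts differed from that of outermost starts. A start was called CpG-rich where the 500 bp around it had a GC content of at least 55% and at least 0.65 of the CpG dinucleotides that its base composition predicts, a common criterion of CpG islands. By this measure 41.4% of the outermost starts of coding genes were CpG-rich, 9.24% of internal starts with no member within 1 kb, and 1.33% of the starts of members. Median GC content around the start was 57.0%, 49.6% and 46.2%, respectively. The letters AG, with which introns end, stood directly before 10.4% of the starts of members, 9.75% of the other internal starts and 5.19% of outermost starts. TATAAA, the core of the TATA box, was found on the strand of the gene within 40 bases before 1.19%, 1.14% and 2.79% of these starts.

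The 120 bases before 8 annotated starts are shown because the pattern around starts described next divides by CpG content. They were read from the GRCm38 (mm10) genome on the strand of the gene and end at the base before the start, and capitals mark every CpG dinucleotide. The first 3, at genes of the Runx transcription factors and of the CpG-binding demethylase Kdm2b, are CpG-rich and lie in the windows chr16:92697329-92697448, chr17:44734694-44734813 and chr5:122952507-122952626, all on the minus strand.
Runx1: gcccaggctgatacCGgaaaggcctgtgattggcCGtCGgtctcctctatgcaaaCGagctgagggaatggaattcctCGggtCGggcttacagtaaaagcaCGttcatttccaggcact
Runx2: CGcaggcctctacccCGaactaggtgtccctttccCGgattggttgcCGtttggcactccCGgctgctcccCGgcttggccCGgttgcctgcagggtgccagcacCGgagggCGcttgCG
Kdm2b: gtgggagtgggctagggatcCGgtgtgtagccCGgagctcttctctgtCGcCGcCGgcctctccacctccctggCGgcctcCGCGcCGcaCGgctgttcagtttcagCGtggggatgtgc

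They hold 7, 10 and 11 CpG dinucleotides. The other 5 are CpG-poor starts at genes whose signal differed between the tissues. They lie at chr17:29097780-29097899 (plus strand), chr3:88482865-88482984 (minus), chr17:51742267-51742386 (minus), chr2:9875400-9875519 (minus) and chr7:75612164-75612283 (plus).
Cdkn1a: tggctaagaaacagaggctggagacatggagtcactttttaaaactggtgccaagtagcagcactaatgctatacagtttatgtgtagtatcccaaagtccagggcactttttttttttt
Lmna: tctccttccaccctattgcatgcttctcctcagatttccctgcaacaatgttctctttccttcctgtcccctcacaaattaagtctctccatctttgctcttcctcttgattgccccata
Satb1: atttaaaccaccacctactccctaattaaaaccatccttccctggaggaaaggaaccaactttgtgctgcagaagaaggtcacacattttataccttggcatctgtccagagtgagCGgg
Gata3: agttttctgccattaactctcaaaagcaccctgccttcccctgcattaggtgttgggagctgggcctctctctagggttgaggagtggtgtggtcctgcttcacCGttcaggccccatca
Akap13: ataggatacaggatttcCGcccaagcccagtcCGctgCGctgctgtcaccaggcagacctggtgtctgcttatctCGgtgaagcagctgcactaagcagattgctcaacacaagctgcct

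These 5 hold 0, 0, 1, 1 and 4 CpG dinucleotides. None of the 8 windows overlaps an annotated untranslated region.

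To see whether internal starts resemble promoters in their H3K36me3, the share of starts covered by a peak was followed along the gene from 10 kb before to 10 kb after each start. All 28942 internal starts over 1 kb from an outermost start were used, with or without a peak. At the 26867 CpG-poor starts coverage was 24.6% at 5 kb upstream, 31.1% at 1 kb upstream, 36.6% at the start and 37.9% at 200 bp downstream, and it was still 31.1% at 5 kb downstream. There was no trough at these starts. Ordinary exon starts of the same genes were taken at least 5 kb into the gene and over 1 kb from any transcript start (n = 102382). They had a like profile upstream and near the start, with 24.9% at 5 kb upstream and 30.0% at 1 kb upstream. Coverage was 36.6% at the exon start and 38.0% at 200 bp downstream. Farther downstream the profiles parted, and at 5 kb exon starts had 27.2%, below the 31.1% of CpG-poor internal starts. The CpG-poor profile was an average over kinds of transcript that differed in level. The 8901 CpG-poor starts of protein_coding transcripts had 16.8% at 1 kb upstream, 22.6% at the start and 21.9% at 5 kb downstream. The 10470 starts of retained_intron transcripts, of either CpG class, had 43.3%, 47.9% and 39.5%.

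The 2075 CpG-rich internal starts had another profile. Coverage was 3.08% at 5 kb upstream and 1.83% at 1 kb upstream, although these positions lay inside the annotated gene. It reached 7.76% at the start, 6.75% at 1 kb downstream, 23.3% at 5 kb and 26.3% at 10 kb. Outermost starts of the 9504 genes with an internal start had 8.50% at 5 kb upstream, 2.06% at 1 kb upstream, 2.33% at the start, 17.8% at 5 kb and 22.6% at 10 kb downstream. The order of the groups was alike in both tissues. At 1 kb upstream of CpG-rich internal starts the mean signal, counting positions outside peaks as 0, was 0.38 RPKM in spleen and 0.41 in large intestine. At 5 kb downstream it was 3.87 and 4.07 RPKM. The corresponding values at CpG-poor internal starts were 5.49 and 5.90 RPKM upstream and 5.20 and 5.61 RPKM downstream. In 1377 CpG-rich internal starts of protein_coding transcripts, coverage went from 1.23% at 1 kb upstream to 22.5% at 5 kb downstream.

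**Figure D1:**
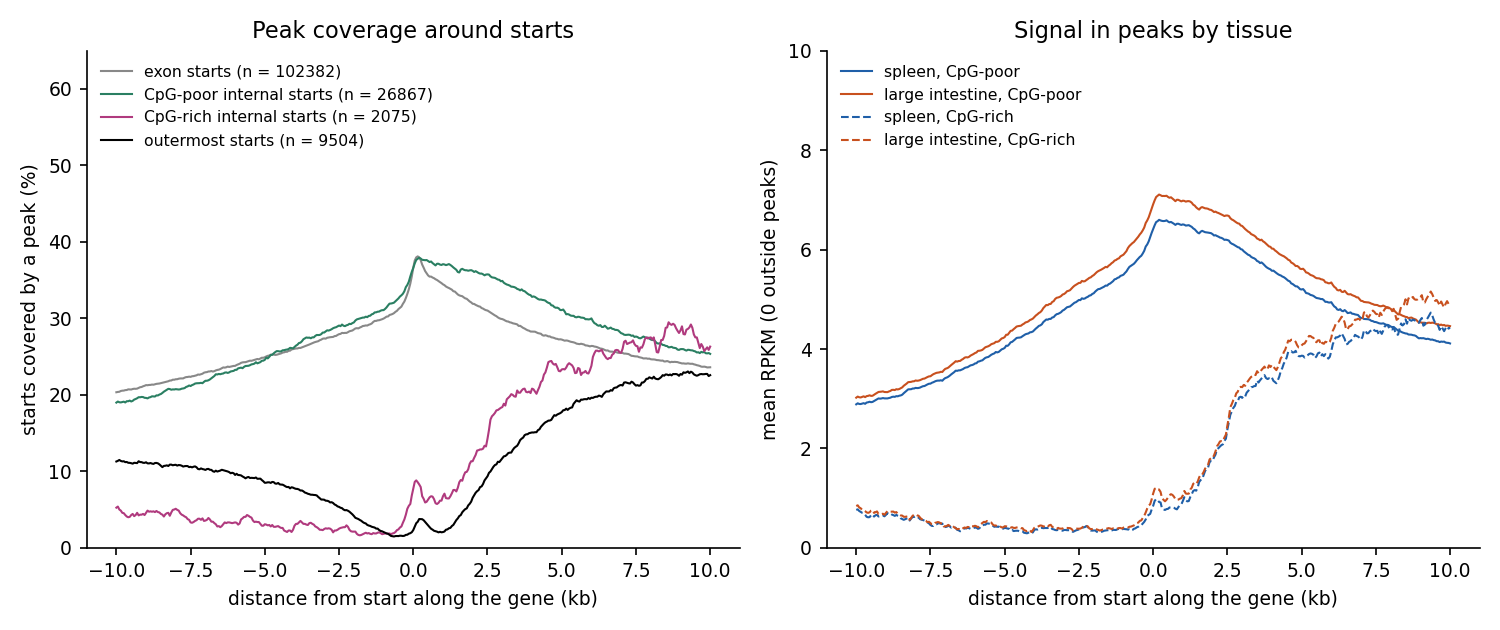
Left, percent of starts covered by an H3K36me3 peak (y) against the distance from the start along the gene in kb (x, negative values upstream) for CpG-poor and CpG-rich internal starts and for the outermost starts and exon starts of genes with an internal start. Right, mean RPKM with 0 outside peaks, for spleen and large intestine at both kinds of internal start. CpG-rich internal starts go from 1.83% at 1 kb upstream to 23.3% at 5 kb downstream and outermost starts from 2.06% to 17.8%, with CpG-rich internal starts higher at the start itself (7.76 against 2.33%) and lower at 5 kb upstream (3.08 against 8.50%). CpG-poor internal starts, averaged over all kinds of transcript, lie at 36.6% at the start, as exon starts do.

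A peak under 10000 bp had its midpoint within 1 kb of 9827 of the 28942 internal starts, or 34.0% (Wilson 95% interval 33.4 to 34.5%, over starts, which are not independent). The same window placed 5 kb upstream of these starts held a peak for 27.1%, 3 kb upstream for 28.3%, 3 kb downstream for 34.9% and 5 kb downstream for 33.8%. The share at the start was thus above that upstream and close to that downstream. At outermost starts the share was 7.91% (7.56 to 8.27%). CpG-rich internal starts had a peak in 14.9% (13.5 to 16.5%) and CpG-poor ones in 35.4%. Starts of retained_intron transcripts had one most often, in 44.3%, followed by those of nonsense-mediated decay transcripts (36.9%), processed_transcript models (34.8%) and protein_coding transcripts (22.4%).

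Members were short peaks, with a median length of 585 bp (quartiles 319 and 1430). Their median level was 11.3 RPKM in spleen, where they ranged from 0.095 to 65.8, and 11.5 RPKM in large intestine, where they ranged from 0.37 to 71.7. Gene-body peaks over 1 kb from any start and at least 5 kb downstream of an outermost start (n = 92642) had medians of 10.3 and 10.4 RPKM. The median of both libraries together was 1.10 times higher at members, with position in the gene not matched. Longer peaks were higher: the medians of members rose from 9.21 RPKM in spleen and 9.33 in large intestine under 500 bp to 18.4 and 19.96 RPKM at 3000 bp or more. Of members, 33.4% were at least 1000 bp long, against 22.6% of the gene-body peaks. Within the class of 3000 bp or more the gene-body peaks had 16.9 and 18.0 RPKM, and under 500 bp they had 8.94 and 8.96 RPKM.

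Level also followed the position in the gene. Members whose start lay in the first 20% of the gene length had medians of 9.92 RPKM in spleen and 10.1 in large intestine, and those in the last 20% had 11.8 and 12.4. The 126 members at CpG-rich starts had a median of 7.79 RPKM in spleen and 11.03 in large intestine, and the 10772 at CpG-poor starts had 11.3 and 11.5. The limits of the rule marked no step in level. Peaks with a midpoint in the last 100 bp before the 1 kb limit had medians of 10.9 RPKM in spleen and 11.1 in large intestine, and those in the 100 bp after it had 11.1 in both. Members of 8 kb or more had 22.8 and 24.4 RPKM, and peaks of 10 to 12 kb at internal starts had 25.2 and 28.3.

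The 5 highest members of each library lay in 6 genes. Ptbp1, a repressor of alternative splicing, had a peak at chr10:79856300-79864294 with 65.8 RPKM in spleen and 68.1 in large intestine. Arhgef1, an activator of the small GTPase RhoA in leukocytes, had 63.7 and 71.7 RPKM at chr7:24920627-24926664. The kinase gene Grk2, which turns off G protein-coupled receptors, had 52.7 and 57.4 RPKM at chr19:4285128-4294986. The member at Ucp2, a mitochondrial carrier gene, was among the 5 highest in spleen with 47.7 RPKM, and it had 48.2 in large intestine. Csnk1g2, a casein kinase gene, and Tpst2, which encodes an enzyme that sulfates tyrosines, were among the 5 highest in large intestine with 57.2 and 52.8 RPKM, where spleen had 43.6 and 38.5.

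Members were spread over many genes: 1658 of the 4185 genes had 1 member and 74 had 10 or more. Atxn2, an RNA-binding protein gene, and Dnah8, which encodes a dynein of motile cilia, had the most, with 23 each. Ncor1, a corepressor of nuclear receptors, had 21 and 4932438A13Rik had 19. Birc6, a ubiquitin ligase gene, and Smarca2, an ATPase gene of chromatin remodelling complexes, had 16 each. These are long genes, from 105 kb (Atxn2) to 253 kb (Dnah8), and their 16 to 23 peaks shared 10 to 14 starts each. At Dnah8 the members had a median of 11.4 RPKM in spleen and 9.79 in large intestine.

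The tissues were compared by a log2 ratio, large intestine over spleen, after both columns were scaled to their totals over all peaks and with a pseudocount of 0.5 RPKM, so that positive values mean more signal in large intestine. It was computed for the 5350 members (49.1%) with at least 40 approximate reads over both libraries. Peaks listed with fewer reads keep their values but enter no comparison. The median ratio of members was 0.02 (quartiles -0.20 and 0.23), and that of all 45407 peaks under 10000 bp with as many reads was 0.01. Members ranged from -1.50 to 2.68.

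Few members differed by more than 2-fold. There were 106 past 2-fold higher in large intestine (1.98%), where the share over all such peaks was 2.5%, and 32 past 2-fold higher in spleen (0.598%, against 1.07% over all peaks). The approximate 95% counting interval lay above 0 for 572 members (10.7%), beside a background of 9.01%, and below 0 for 315 (5.89%), beside 6.04%. These shares were near those of all peaks. Members compared were longer, at a median of 1468 bp against 1194 bp, and the median counting error of the ratio was 0.26 for members and 0.31 for all peaks. In a set of bulk samples of this kind, fewer cells with the mark and less of the mark per cell cannot be told apart.

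The members with the firmest excess in large intestine were named by the interval bound nearer to 0, so their ratios are a description of that choice. At Ky, the gene of a peptidase studied in muscle, the peak at chr9:102520992-102523372 had 1.72 RPKM in spleen and 13.6 in large intestine, a log2 ratio of 2.63 (interval 1.74 to 3.52). At Cdkn1a, which encodes the cell cycle inhibitor p21, the peak at chr17:29098093-29099542 had 4.87 RPKM in spleen and 29.0 in large intestine (2.41, interval 1.72 to 3.10). It lay 6.92 kb downstream of the outermost start, by the protein_coding start whose CpG-free upstream sequence is shown above. Lmna, the gene of lamins A and C of the nuclear envelope, had 7.62 and 33.3 RPKM at chr3:88481958-88484044 (2.01, interval 1.54 to 2.48). Mmp9, a secreted metalloprotease gene, had 3.37 and 15.8 RPKM at chr2:164951951-164956132 (2.03, interval 1.53 to 2.52).

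The remaining 4 in this direction were at Hip1, Coro2b, Nav2 and Crmp1. Hip1, an endocytosis adaptor gene, had 4.54 RPKM in spleen and 20.9 in large intestine (log2 ratio 2.04). Coro2b, an actin-binding coronin gene, had 3.26 and 24.4 RPKM (2.68), on 52.3 approximate reads. Nav2, a neuron navigator gene, had 6.57 and 19.0 RPKM at a start 645 kb into the gene (1.42). Crmp1, which encodes a cytoskeletal protein known from axon guidance, had 8.17 and 21.6 RPKM (1.30).

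The 8 members named in the same way for an excess in spleen had 11.4 to 27.1 RPKM in spleen. Nod1, a cytosolic sensor of bacterial peptidoglycan, had 27.1 RPKM in spleen and 11.9 in large intestine at chr6:54942679-54945318 (log2 ratio -1.19, interval -1.53 to -0.85). Mndal, an interferon-inducible gene, had 12.5 and 4.89 RPKM (-1.32), and Usp18, which removes the ubiquitin-like protein ISG15, had 24.2 and 12.4 RPKM (-0.98). Ms4a4b, a membrane protein gene of T cells, had 20.4 and 10.4 RPKM (-0.99). Satb1, a chromatin organizer of T cells, had 24.0 and 11.5 RPKM at chr17:51741665-51743529 (-1.08, interval -1.49 to -0.66). Myb, a transcription factor gene of lymphoid cells, had 17.3 and 6.41 RPKM (-1.40). Ift80, a gene of intraflagellar transport, had 16.0 and 6.83 RPKM (-1.21), and Ahcyl2, a homologue of the enzyme that splits S-adenosylhomocysteine, had 11.4 and 3.82 RPKM (-1.50).

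**Figure D2:**
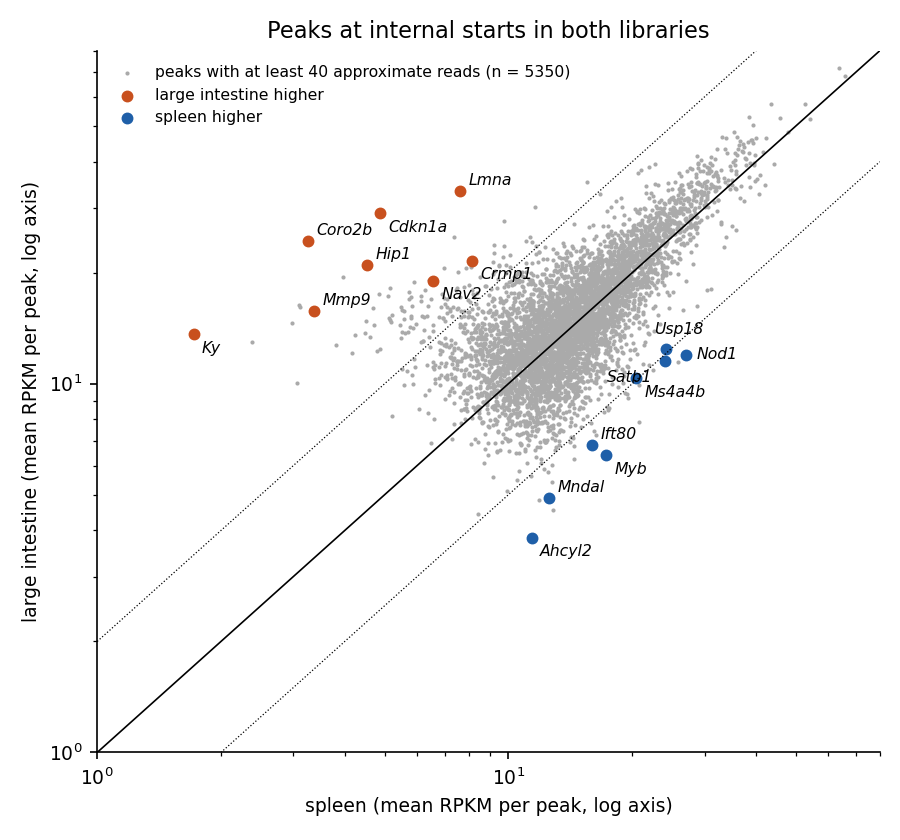
Mean RPKM per peak as deposited, in large intestine (y, log axis) against spleen (x, log axis), for the 5350 peaks at internal starts with at least 40 approximate reads, 1 point a peak. The solid line is equality and the dotted lines are 2-fold, and the 8 named peaks in each direction stand outside the main cloud, with Ky farthest to the left at 1.72 RPKM in spleen.

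The ratio followed the GC content of the peaks. In the lowest GC decile the median ratio was -0.27 in 390 members and -0.27 in all peaks, and in the highest decile it was 0.24 in 667 members and 0.23 in all. Peaks at Ift80 (38.7% GC), Mndal (34.5%) and Ahcyl2 (39.95%) lay in the lowest 2 deciles, and those at Lmna (57.9%) and Cdkn1a (56.0%) in the highest. Nod1 (57.3% GC), Satb1 (50.4%) and Usp18 (48.4%) were higher in spleen although the members of their deciles had median ratios above 0 (0.24, 0.10 and 0.09). The 18 members compared at CpG-rich starts had a median ratio of 0.52, and the 5332 at CpG-poor starts 0.02. The part of GC content in these differences was not tested.

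**Figure D3:**
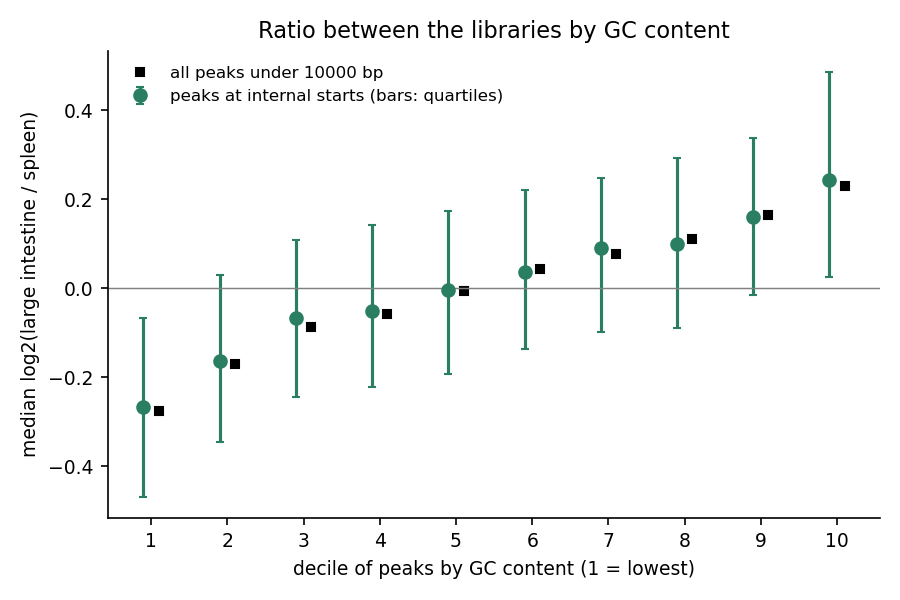
Median log2 ratio, large intestine over spleen (y), by decile of GC content (x, 1 is the lowest), for peaks at internal starts (circles, bars are quartiles) and for all peaks under 10000 bp (squares). Both sets rise together, from -0.27 in the lowest decile to 0.24 and 0.23 in the highest.

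Members were also compared with the rest of their gene. Each ratio was set against that of the summed signal of all other peaks in the same gene body, for 5242 members of 2966 genes. Own and remaining ratio had the same sign in 69.3%, and the median of the difference was 0.01 (quartiles -0.17 and 0.19). In 137 of the 5242 members the interval of the difference lay above 0 and in 117 below. The width of these intervals rests on the assumed 200 bp per read, and no share over other gene-body peaks was computed. The counts therefore cannot decide whether members depart from the rest of their genes. The difference was past 2-fold in 21 members toward large intestine and in 12 toward spleen, and no background was computed for these. Of the 16 peaks named above, 14 had an interval of the difference that held 0. Those at Ky, Lmna, Mmp9, Hip1, Nav2, Crmp1, Nod1, Ift80, Ms4a4b and Usp18 differed from the rest of their genes by -0.09 to 0.26. Satb1 and Myb differed from the rest by -0.28 each and Ahcyl2 by -0.62. At Cdkn1a the member's ratio of 2.41 stood 1.30 above that of the other 4 peaks of the gene (1.11, interval of the difference 0.33 to 2.27). At Mndal it stood 0.82 below the rest (-0.49, interval of the difference -1.46 to -0.19). At Coro2b it stood 1.38 above the rest (1.31), with an interval from -0.02 to 2.77.

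To ask whether the tissues differed in the part of a gene before an internal start from the part after it, the ratio was computed from the summed signal of all peaks upstream and downstream of each start of a member, inside the gene and with at least 40 approximate reads on each side. This gave 6725 starts in 3352 genes. The median ratio was -0.06 upstream and 0.01 downstream, and the median of downstream minus upstream was 0.06 (quartiles -0.07 and 0.19). The difference was past 2-fold in size at 42 starts (0.625%) in 31 genes, 13 with the downstream side relatively higher in large intestine and 18 with the upstream side. Among 3823 internal starts with no member within 1 kb the share was 1.62%. The counting interval of the difference lay above 0 at 485 starts (7.21%) in 324 genes, which is toward a relatively higher downstream side in large intestine, and below 0 at 153 starts (2.28%) in 111 genes. The corresponding shares of internal starts with no member were 10.5% and 3.19%. At 19 of the 42 starts the upstream side was past 2-fold between the tissues and the downstream side was not, and at 3 it was the reverse. The upstream ratio was the larger in size at 31 of the 42 starts, against 55.7% of all 6725. The upstream side of the 42 starts held fewer reads, with a median of 102 against 327, and the part of this in the count was not tested.

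In 4 of the 6 genes named for a relatively higher downstream side, the upstream side was lower in large intestine and the downstream ratio was nearer to 0. At Foxp1, a forkhead factor of T cell quiescence, the 41 peaks between the outermost start and the protein_coding start 359.7 kb downstream had a mean of 11.2 RPKM in spleen and 5.02 in large intestine (log2 ratio -1.13). The 118 peaks downstream of it had 14.5 and 11.4 RPKM (-0.37), a difference of 0.75 (interval 0.53 to 0.98). At Akap13, a scaffold of protein kinase A that also activates RhoA, the upstream peaks had 12.8 and 6.44 RPKM (-0.98) and the downstream peaks 19.3 and 17.5 (-0.18). Ripor2, an inhibitor of RhoA, had 14.1 and 5.51 RPKM upstream (-1.32) and 22.9 and 15.2 downstream (-0.63), at a CpG-rich start. Esf1, a gene of ribosomal RNA processing, had 14.5 and 6.15 RPKM upstream (-1.21) and 9.55 and 10.1 downstream (0.03).

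Adap1 and Rnf157 had another pattern in this direction. At Adap1, a regulator of Arf GTPases, the upstream peaks were lower in large intestine, with 13.2 RPKM in spleen and 8.03 in large intestine (-0.73), and the downstream peaks higher, with 9.03 and 15.6 (0.71). At Rnf157, a ubiquitin ligase gene, both sides were higher in large intestine, with 12.6 and 16.7 RPKM upstream (0.35) and 5.57 and 15.1 downstream (1.31).

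In the other direction the upstream side was higher in large intestine. Plec, the gene of the cytoskeletal linker plectin, had 2.59 RPKM in spleen and 11.5 in large intestine over 7 peaks upstream of a protein_coding start 26.2 kb into the gene (1.92). The 5 downstream peaks had 60.6 and 74.5 RPKM (0.25), a difference of -1.67 (interval -2.54 to -0.80). Nr3c1, the glucocorticoid receptor gene, had 4.45 and 13.1 RPKM upstream (1.42) and 10.1 and 14.2 downstream (0.42). Fam20a, a pseudokinase gene of the secretory pathway, had 2.28 and 10.4 RPKM upstream (1.93) and 11.5 and 15.6 downstream (0.38). Appl2, an endosomal adaptor gene, had 2.38 and 12.6 RPKM upstream (2.14, on 49.3 approximate reads) and 9.79 and 13.0 downstream (0.35). Slc2a9, a urate transporter gene, differed on the downstream side instead, with 13.3 and 16.7 RPKM upstream (0.28) and 11.5 and 5.53 downstream (-1.04). Gm20696, a predicted gene, also fell under the rule with a difference of -1.06, but all its peaks lay in the bodies of other coding genes as well.

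**Figure D4:**
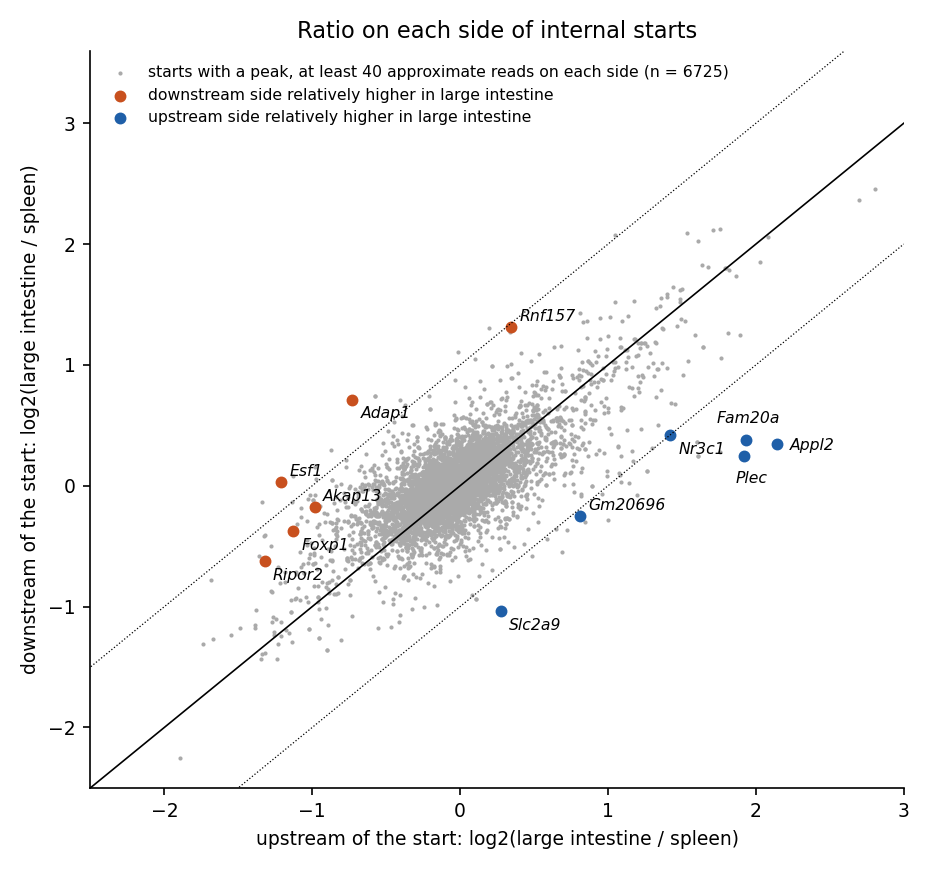
Log2 ratio of large intestine over spleen downstream (y) against upstream (x) of each of 6725 internal starts with a peak. The solid line is equality and the dotted lines mark a 2-fold difference between the sides. Foxp1, Akap13 and Ripor2 lie left of the line with upstream ratios of -0.98 to -1.32, and Plec, Fam20a and Appl2 lie to its right with upstream ratios of 1.92 to 2.14 and downstream ratios near 0.

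Genes known for internal promoters or several starts were followed as a list of 32, mostly regulators of T cells. By the annotation 25 had an internal start, and 20 of them had 62 members. The other 5 with an internal start had none: Crem and Zeb1 had 12 and 21 peaks elsewhere in the gene, and Tcf4, Trp63 and Trp73 had none in the gene body. Lef1, Tcf7, Ikzf1, Bcl2l1, Bcl11b and Fli1 were among those with no internal start under the rule. Of the 62 members, 25 had at least 40 approximate reads, with a median ratio of 0.07. The interval lay above 0 in 6 (24%, against 9.01% of all peaks compared) and below 0 in 3 (12%, against 6.04%). Past 2-fold, 2 were higher in large intestine (8%, against 2.5%) and 1 in spleen (4%, against 1.07%). The list was chosen with earlier results of these data known, and Dnmt3a and Kdm2b held 6 of the 25 peaks each. These shares therefore describe the list only.

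Il1rl1, which encodes the IL-33 receptor ST2 of intestinal Treg cells, has a distal and a proximal promoter. Its member at chr1:40440732-40442205, by an internal start 11.1 kb downstream, had 3.06 RPKM in spleen and 10.02 in large intestine (log2 ratio 1.52, interval 0.62 to 2.42). The rest of the gene was higher in large intestine by a like amount (1.14), and the sides of the start at 10.1 kb differed by -0.50 (interval -1.66 to 0.66). Gata3, the transcription factor gene active in ST2+ Treg cells, had 20.1 RPKM in spleen and 26.3 in large intestine at chr2:9872443-9875683 (0.34, interval 0.07 to 0.61). Upstream of a start 14.6 kb into Gata3 the signal was 8.84 and 19.8 RPKM (1.07), and downstream it was 19.5 and 21.6 RPKM (0.10), a difference of -0.97 (interval -1.46 to -0.48). The larger ratio was thus upstream of this start, on 187 approximate reads in 4 peaks, against 2166 reads downstream. The upstream stretch also held a protein_coding start of Gata3 at 11.4 kb, so it does not stand for the outermost start alone.

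Pde4d and Pde4b encode phosphodiesterases that break down cyclic AMP from many alternative promoters. The Pde4d member at a start 1473 kb into the gene had 5.57 RPKM in spleen and 15.0 in large intestine (1.31, interval 0.38 to 2.24), while the one at 1485 kb with enough reads had 7.87 and 8.58 (0.07). The Pde4b member at 502 kb had 10.5 and 5.48 RPKM (-0.92, interval -1.78 to -0.06), where the rest of the gene had a ratio of 0.10. Ptpn6, the phosphatase SHP-1, had 21.97 and 17.4 RPKM at its start at 16.9 kb (-0.38, interval -0.69 to -0.06), and 26.0 and 25.7 RPKM at that at 10.01 kb (-0.06, interval -0.34 to 0.22). Lck, the T cell receptor kinase gene with a distal and a proximal promoter, had 19.2 and 15.6 RPKM (-0.34), with an interval from -0.78 to 0.10 that holds 0. Nfatc2, a calcium-regulated transcription factor gene, had 10.1 and 18.9 RPKM (0.83, interval 0.06 to 1.60).

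Dnmt3a and Kdm2b had 6 members with enough reads each, more than any other gene of the list. The DNA methyltransferase gene Dnmt3a has an internal promoter for a shorter protein, and its 6 members with enough reads had 12.8 to 27.6 RPKM in spleen and 13.2 to 27.2 in large intestine. Their ratios ranged from -0.23 to 0.07, and every interval held 0. The 6 of Kdm2b had 9.53 to 21.4 RPKM in spleen and 10.9 to 24.7 in large intestine, with ratios from 0.10 to 0.73. For 2 of them the interval lay above 0: the member at 41.8 kb had 17.8 and 24.4 RPKM (0.40) and the one at 72.1 kb had 9.53 and 16.7 (0.73). At the CpG-rich start of Kdm2b, shown above, the peak had 8.82 RPKM in spleen and 12.4 in large intestine on 19.8 approximate reads. The signal downstream of that start was relatively higher in large intestine than the signal upstream, by 0.26 (interval 0.10 to 0.42).

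The Runx genes each have a distal and a proximal promoter. At a CpG-rich start of Runx1 131 kb downstream, the member with enough reads had 11.4 RPKM in spleen and 19.2 in large intestine (0.68, interval -0.05 to 1.41). The sides of this start differed by 0.06 (interval -0.06 to 0.17). The members at Runx2, Runx3, Prdm1, Pik3r1, Kdm2a, Ets1 and Tcf12 had under 40 approximate reads each. At the CpG-rich start of Runx2 the values were 2.41 RPKM in spleen and 8.06 in large intestine. Prdm1, the gene of the effector regulator Blimp-1, had 3.09 and 10.9 RPKM at a start 71.3 kb downstream. Tcf12, a gene of an E protein, had a downstream minus upstream difference of 1.20 (interval 0.25 to 2.16) at a start 189 kb downstream, with 10.9 RPKM in spleen and 4.13 in large intestine on the upstream side, on 41.6 approximate reads.

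**Figure D5:**
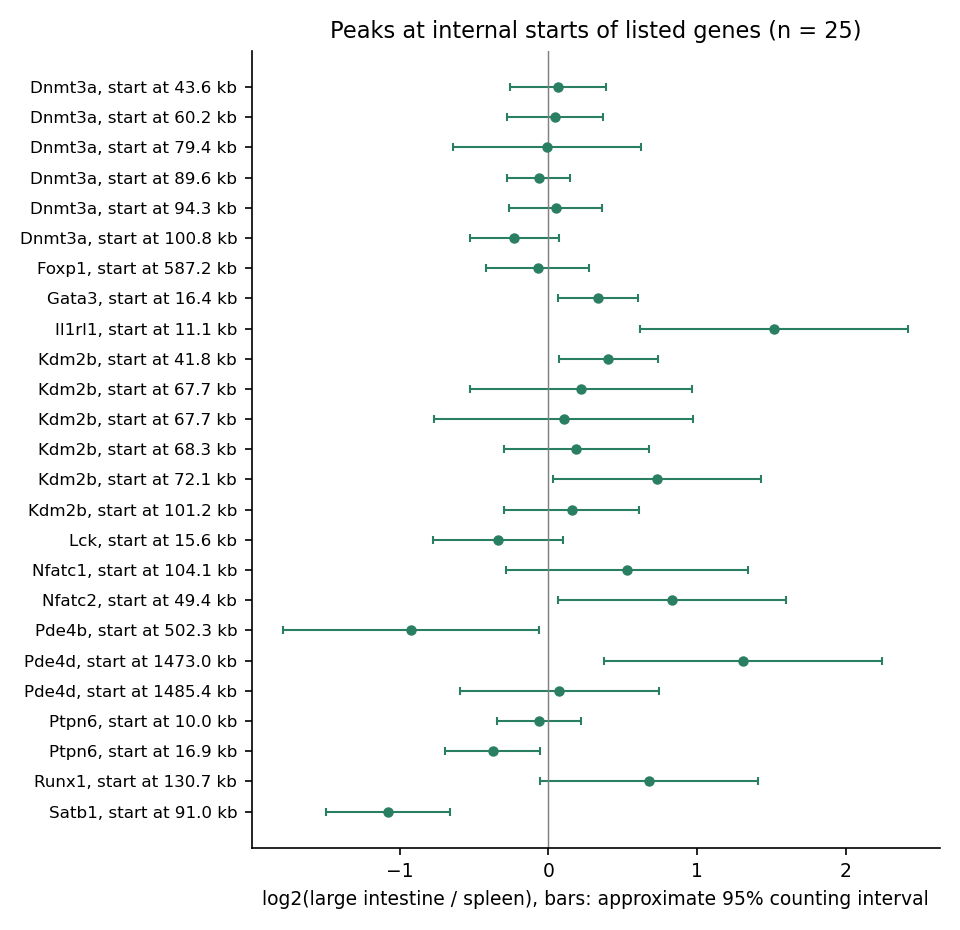
Log2 ratio of large intestine over spleen (x) of the 25 peaks at internal starts of listed genes with at least 40 approximate reads, each labelled with the distance of its start from the outermost start in kb. Bars are approximate 95% counting intervals, which cover counting error only. Il1rl1 (1.52) and Pde4d (1.31) stand farthest toward large intestine and Satb1 (-1.08) toward spleen, and the 6 peaks of Dnmt3a lie between -0.23 and 0.07.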

How the data were processed

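Per the study's methods, chromatin of sorted Treg cells was sequenced as single-end reads of 75 nt and aligned to mm10. Peaks were called with MACS2 against input at p 0.01 and merged over both tissues. The submitters' processing notes list FastQC, Bowtie2, MACS2 and bedtools. The authors deposited mean RPKM coverage per merged peak, in a table labelled as raw counts. The products of value and peak length were multiples of 1.69 RPKM (spleen) or 1.31 RPKM (large intestine), which is what a read adds to a 20 bp bin, and depth was inferred from these.

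Approximate reads took each read as covering 200 bp. Intervals (95%) treat them as independent molecules and cover counting error only. GENCODE M21 and the GRCm38 genome gave starts and bases, and peaks ended inside the GRCm38 sequence on 21 of 21 chromosomes. Scripts used Python 3.11.15, numpy 2.4.6, pandas 2.3.3, scipy 1.17.1 and matplotlib 3.10.9, and were tested on simulated data. With 1 library per tissue, no p-value was computed.

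The members and lists were chosen with earlier results of these data known. The named genes were the 8 members in each direction with the most extreme interval bound nearer to 0, the 6 genes in each direction by downstream minus upstream (1 start per gene), the 5 genes with the most members (7 with ties, not all reported here), the 5 highest members per library, and all members at the list of 32 genes. For a listed gene, the start with the firmest difference between its sides was taken. Alternatives were other scalings, a pseudocount of 5, other filters, GC correction, other distances and protein_coding transcripts only. A further alternative, chosen after seeing the data, used only peaks in the body of 1 coding gene.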

Additional observations from a re-analysis of the deposited data

How the results depend on the processing

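Over 55 alternatives, 24 values stayed within their counting interval or within 1.5 times the count and 31 moved. Counts, shares and ratios of levels cannot be negative, so for them a change of sign was not possible. Only the median ratio of members and the median difference from the rest of the gene could change sign, and neither did. The median ratio of members stayed under 0.07 in size. It was 0.0368 with median-of-ratios scaling, 0.0672 with values as deposited, 0.00011 with no filter, 0.0360 at 100 or more reads, 0.0028 with GC correction, 0.0352 within 500 bp, 0.0081 at starts 20 kb downstream and 0.0335 with protein_coding transcripts only.

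The counts past 2-fold depended most on how low values were treated. Members higher in large intestine numbered 25 with a pseudocount of 5, 786 with no filter, 36 at 100 or more reads, 70 within 500 bp, 63 at 20 kb and 30 with protein_coding transcripts. In the same order, those higher in spleen numbered 1, 772, 5, 16, 20 and 5. These settings compared 5350, 10898, 3098, 2959, 3044 and 1190 members, so a lower count need not mean a lower share. No share over all peaks was computed under them. Under GC correction, 83 of 5350 members were past 2-fold higher in large intestine and 37 in spleen. Genes past 2-fold between the sides of a start numbered 1 with a pseudocount of 5, 8 at 100 or more reads on each side, 11 with protein_coding transcripts and 33 when peaks in the body of over 1 coding gene were left out. These were among 3352, 2930, 1093 and 3183 genes, respectively.

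The share of internal starts with a peak was 22.3% within 500 bp, 44.0% within 2 kb, 23.0% with protein_coding transcripts and 46.3% with peaks of any length that overlap the window. Members over gene-body peaks came to 1.07 with protein_coding transcripts. The difference from the rest of the gene was 0.0023 with no filter, 0.0266 within 500 bp and 0.0268 at 20 kb.

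No paired analysis was possible because each tissue had 1 library. Members under 40 approximate reads, which were most of them, were not compared at this depth.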

Other observations

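The tissue ratio of peaks at internal starts was followed along the gene and by the kind of transcript. Peaks at starts in the stretch from 20 to 40% of the gene length had a median log2 ratio of large intestine over spleen of -0.02 (n = 698), and those in the last 20% had 0.06 (n = 1665). In the last 20% 43 peaks (2.58%) were past 2-fold higher in large intestine and 11 (0.661%) in spleen, where the shares over all peaks were 2.5% and 1.07%. By kind of transcript the medians were 0.02 for retained_intron, processed_transcript and protein_coding transcripts and 0.06 for transcripts subject to nonsense-mediated decay, on 2728, 1270, 1005 and 343 peaks. Peaks of 3000 bp or more at internal starts, the most precisely measured, had a median ratio of 0.05, with 8 of 1278 (0.626%) past 2-fold higher in large intestine and 0 in spleen.

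Peaks at outermost starts were few and differed from those at internal starts in the same direction as peaks at CpG-rich internal starts. There were 1771 of them under 10000 bp, with a median length of 292 bp, 64.0% GC, 8.26 RPKM in spleen and 10.8 in large intestine. The 248 with at least 40 approximate reads had a median ratio of 0.14, with 17 (6.85%) past 2-fold higher in large intestine and 0 in spleen.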
